A study of Mus musculus with 12 samples.

Results

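The genes described here encode 10 secreted glycoproteins of the extracellular matrix: osteopontin (Spp1), thrombospondins 1, 2 and 3 (Thbs1, Thbs2, Thbs3), tenascin C (Tnc), osteonectin (Sparc), periostin (Postn), fibronectin (Fn1) and fibulins 2 and 5 (Fbln2, Fbln5). They are 10 of the 17995 genes with expression values, taken by gene symbol. The list was selected on earlier expression results of the same libraries, namely the levels in each line and the differences between shM5 and shNC, so the differences below are descriptions and not independent tests. The libraries came from the mouse lines C18-4, of spermatogonial stem cell origin, and TM4, of Sertoli cell origin, and the question was what knockdown of the M5 muscarinic acetylcholine receptor does to their transcripts. Cells of each line received a lentiviral mix of short hairpin RNAs against M5 (shM5, labelled CM5 in C18-4 and TMM5 in TM4) or a control hairpin (shNC, labelled C3NC and TM3NC). All groups therefore carried a lentiviral hairpin, and the labels give the strain as IRC for all, where the methods name ICR mice for the animal work. Each of the 4 groups had 3 mRNA libraries, and the labels do not say whether these came from separate cultures, so every p-value measures the spread between libraries, which may be technical. Each line is 1 culture model and holds neither the other cells of the testis nor its basement membrane.

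Matricellular proteins sit in the matrix without being its main scaffold. They bind integrins, syndecans, CD44 and CD47 on cells, and they tune adhesion, spreading, migration and growth factor signalling. In the seminiferous tubule, germ cells and Sertoli cells rest on a basement membrane made together with peritubular myoid cells, and fibronectin, osteopontin and SPARC are known constituents of the tubule and its surroundings. Fibronectin is a structural adhesion protein as well as a matricellular one, and the fibulins link elastic fibres and basement membranes.

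Values are RPKM, reads scaled for transcript length and library size, which compare levels between genes per length. RPKM keeps no read number, so the depth of each library is unknown, and RPKM summed to between 506413 and 540231 per library. Chrm5, the gene of the M5 receptor, was listed at 0 in 10 of 12 libraries. It was at 0.01 RPKM in C18-4 shNC replicate 2 and TM4 shNC replicate 1. Being near 0 in shNC already, it can neither check the labels nor show a knockdown in these libraries. The study reported lower M5 protein in each line from immunofluorescence staining. Of the markers of each labelled cell type, the germ cell genes Ddx4 and Dazl were at most 0.05 RPKM in C18-4, where Uchl1 made up most of a summed marker level of 78.8 to 144 RPKM over 10 genes with values. Sertoli markers summed to 28.3 to 67.3 RPKM over 11 genes in TM4, but to 77.4 to 91.4 RPKM in C18-4. Kitl at 18.42 to 49.5 RPKM and Gata4 at 4.62 to 12.48 RPKM made up most of the TM4 sum, which was highest in shNC replicates 1 and 2. Sox9 was at 1.11 to 1.74 RPKM in TM4, where Amh, Gata1, Cldn11 and Clu were at most 0.19 RPKM. Wt1 stood at 53.9 to 72.3 RPKM in C18-4 against at most 0.15 in TM4. Fibroblast markers summed to 1146 to 1335 RPKM in C18-4 and 1941 to 2891 RPKM in TM4 over 8 genes, but they differed among themselves. In C18-4, Vim and Col1a1 made up most of the sum, and Pdgfra and Pdgfrb were at most 1.85 and 2.16 RPKM. Col1a2 was at most 0.19 RPKM in C18-4 and at least 296.56 RPKM in TM4. Lum was at 0 in C18-4 and at most 0.15 RPKM in TM4. The macrophage marker Adgre1 was at 0 in all libraries. Libraries of the same group differed. The summed RPKM of 20 ATF4 and amino acid response genes was 4824, 4758 and 2067 in TM4 shNC replicates 1, 2 and 3 and 1968 to 1972 in TM4 shM5. In TM4, shNC replicates 1 and 2 thus stood apart from all other libraries. In C18-4 it was replicate 3 of each group that stood apart, at 1.49 and 1.47 times the mean of replicates 1 and 2 of shNC and shM5. Results that rest on replicate 3 are given below with and without it. No fit without both TM4 shNC replicates 1 and 2 is given, since too few libraries would remain.

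The 250 bases before the annotated start of Spp1 and Thbs2 are shown because Spp1 was the highest of the 10 genes in TM4 and lower in C18-4 shM5 than in shNC, and Thbs2 was listed at 0 in nearly all C18-4 libraries. The sequences are those of RefSeq on GRCm38.p6, at chr5:104434861-104435110 on the plus strand for Spp1 and chr17:14694263-14694512 on the minus strand for Thbs2, written in the direction of transcription with matches to the motifs below in capitals.
Spp1: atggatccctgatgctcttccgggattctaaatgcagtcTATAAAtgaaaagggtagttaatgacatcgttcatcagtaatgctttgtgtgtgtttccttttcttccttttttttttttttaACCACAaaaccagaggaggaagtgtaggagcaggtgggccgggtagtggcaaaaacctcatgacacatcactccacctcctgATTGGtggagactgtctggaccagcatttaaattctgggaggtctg
Thbs2: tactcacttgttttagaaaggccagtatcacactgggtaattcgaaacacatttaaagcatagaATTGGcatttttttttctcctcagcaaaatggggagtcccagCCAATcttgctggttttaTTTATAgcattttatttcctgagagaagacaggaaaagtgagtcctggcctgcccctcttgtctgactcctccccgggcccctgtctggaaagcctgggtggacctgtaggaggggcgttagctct
RefSeq windows were matched for 8 of the 10 genes, all but Thbs1 and Fn1. 5 motifs were searched on both strands, the AP-1 letters TGANTCA, the RUNX letters TGTGGT, the CCAAT box, the TATA box letters TATAAA and the GC box letters GGGCGG. No match overlapped another. In Spp1 the matches were a TATA box at 211 bases before the start, the RUNX letters on the opposite strand at 128 bases and a CCAAT box on the opposite strand at 46 bases. In Thbs2 they were a CCAAT box on the opposite strand at 186 bases, another at 144 bases and a TATA box on the opposite strand at 126 bases before the start. Spp1 was the only one of the 8 with the RUNX letters, which 14.2% of 27025 RefSeq promoter windows of this length hold. None held the AP-1 letters, found in 6.85% of windows, 3 held a TATA box (13.0%), 4 a CCAAT box (34.5%) and 4 a GC box (33.0%). These matches are descriptions of letters in the windows and no evidence of binding.

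The 10 genes together took 0.295 to 0.312% of the summed RPKM in C18-4 libraries (1493 to 1627 RPKM) and 0.571 to 0.804% in TM4 libraries (3076 to 4124 RPKM). In C18-4 shNC the order of levels was Sparc, Fbln2, Spp1 and Thbs1, then Fbln5 and Tnc, whose ranges overlapped, then Fn1 and Thbs3, which overlapped too, then Postn and Thbs2. In TM4 shNC Spp1 led, followed by Fn1 and Thbs2 with overlapping ranges, then Fbln2, Thbs1 and Sparc, each overlapping with its neighbour, then Tnc, Fbln5, Thbs3 and Postn. A single gene thus dominated each line, Sparc in C18-4 and Spp1 in TM4.

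**Figure D1:**
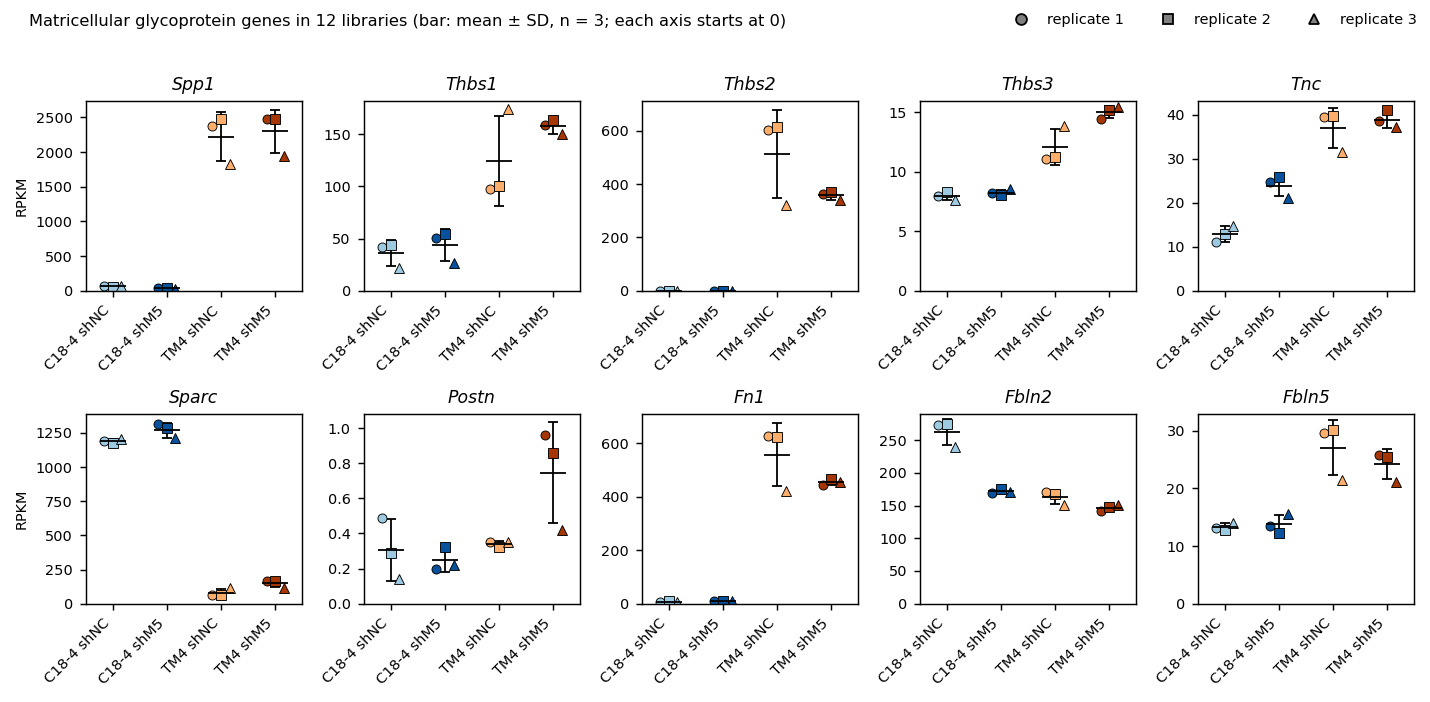
RPKM of each of the 10 genes in the 12 libraries, by group (points are libraries, their shapes give the replicate number, and bars give the mean and SD of n = 3). Spp1, Thbs2 and Fn1 were high in TM4, Sparc was high in C18-4, and replicate 3 of TM4 shNC stood away from replicates 1 and 2 for Thbs1, Thbs2, Sparc and Fn1.

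Differences of levels were fitted on log2(RPKM + 0.1) over all genes averaging 0.5 RPKM or more in the libraries compared, with limma and Benjamini-Hochberg adjustment over all of them. A gene was called at the threshold of the study, an adjusted p of at most 0.001 with an absolute log2 fold change of at least 1, and a looser call at an adjusted p below 0.05 is given beside it. The study applied that threshold to DEGseq results, a different method, and reported genes past it in both lines. Its counts and those given here are therefore not comparable. Between shM5 and shNC in C18-4, Spp1 and Fbln2 were lower and Tnc was higher in shM5, and no gene of the 10 reached the threshold of the study. Of the 8 genes tested, 3 had an adjusted p below 0.05 against 0.586% of all 11611 genes tested, while 0% of all genes passed the threshold of the study and 1425 genes had a raw p below 0.05. Their groups did not overlap in 5 of 8 (Spp1, Tnc, Sparc, Fn1 and Fbln2) against 18.9% of all genes. In C18-4, replicate 3 of both groups deviated alike over all genes, whereas replicates 1 and 2 were hardly told apart by their number. With the replicate number as a block, 4 of 8 had an adjusted p below 0.05 (the same 3 and Thbs1) against 11.9% of all genes. The threshold of the study was then passed by 0 of 8 against 0.0775%. The calls were lost with fewer libraries, at fold changes of about the same size: without shNC replicate 1 or 2, or shM5 replicate 1 or 2, 0 of 8 genes had an adjusted p below 0.05, without shM5 replicate 3 only Spp1 did, and without shNC replicate 3 all 3 did.

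In TM4, none of the 10 genes was called between shM5 and shNC, whereas Sparc was called when shNC replicate 3 was left out. All 10 genes were tested and 0 had an adjusted p below 0.05. Of all 11016 genes tested, 0% passed either rule, with 2866 at an unadjusted p below 0.05 and a smallest adjusted p of 0.192 (limma). Groups did not overlap for Thbs3, Sparc and Postn, 3 of 10 against 26.8% of all genes. Postn reached the 0.5 RPKM minimum only through shM5, and among genes with that mean in both groups 2 of 9 did not overlap, against 26.8% of 10851 genes. Leaving out shNC replicate 3 was a choice made with its values in view, and it leaves 2 shNC libraries that lie close together. The adjusted p-values of fits without it, here and below, rest on that choice. Without shNC replicate 3, 7 of 10 genes had an adjusted p below 0.05 against 67.4% of all genes, and 1 of 10 passed the threshold of the study against 8.13%. In that fit 20 of 20 ATF4 genes were lower and 13 of 15 proliferation genes higher in shM5 at an adjusted p below 0.05. The summed levels of shNC replicate 3 were nearer to shM5 than to shNC replicates 1 and 2 in both lists. Leaving it out therefore favours such counts, and they are no independent support. The part of these programmes in the differences was not tested.

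**Figure D2:**
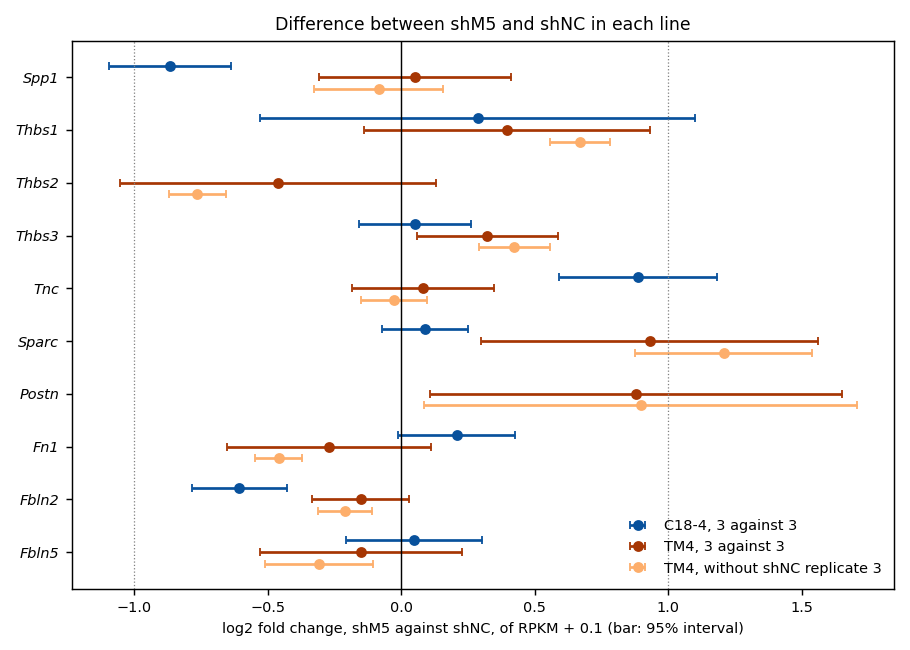
Log2 fold change of RPKM + 0.1 between shM5 and shNC for each gene (x axis, points are limma estimates and bars 95% intervals), in C18-4, in TM4 and in TM4 without shNC replicate 3. Thbs2 and Postn were too low to test in C18-4. The C18-4 intervals of Spp1, Tnc and Fbln2 lie away from 0, and leaving out 1 library narrows most TM4 intervals.

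Between the lines, on shNC libraries, the largest contrasts of levels were Spp1, Thbs2 and Fn1, higher in TM4, and Sparc, higher in C18-4. 5 of the 9 genes tested passed the threshold of the study (Spp1, Thbs2, Tnc, Sparc and Fn1) against 19.2% of all 11810 genes, and 9 of 9 had an adjusted p below 0.05 against 55.2%. Groups did not overlap in 9 of 9, against 63.6% of all genes. Thbs2, at 0 in C18-4 shNC, entered the fit only through TM4 and had to differ. Among genes with a mean of 0.5 RPKM in each line, a subset taken after the values were seen, 4 of 8 passed the threshold of the study against 11.2% of 10459 genes, and 8 of 8 had an adjusted p below 0.05 (49.8%) and did not overlap (59.3%). The median log2 difference of all genes, C18-4 minus TM4, was 0.15, and it became 0.02 with median centring and -0.01 with quantile normalization. The 9 genes kept their direction under each scaling.

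Spp1, the secreted phosphoprotein osteopontin that binds integrins and CD44, was at 64.27, 61.19 and 65.42 RPKM in C18-4 shNC and at 37.96, 36.63 and 30.44 RPKM in C18-4 shM5, replicates 1 to 3. Every shM5 library was lower than every shNC library. The level was 1.82-fold lower on RPKM + 0.1 (log2 fold change -0.87 ± 0.10 SE, 95% interval -1.09 to -0.64, limma adjusted p = 0.0367, and 0.00121 with the replicate block), and 0.818% of all genes had a lower log2 fold change. Spp1 did not pair by replicate number, since replicate 3 was the highest shNC and the lowest shM5 library. The value with the block is thus no stronger evidence for it. Leaving out shNC replicate 1 or 2 or shM5 replicate 1 or 2 took the limma adjusted p of Spp1 to between 0.176 and 0.239, at log2 fold changes of -0.93 to -0.86. In TM4, Spp1 was the highest of the 10, at 2369, 2473 and 1825 RPKM in shNC and 2476, 2470 and 1942 RPKM in shM5. Those groups overlapped and differed by a log2 fold change of 0.05 (95% interval -0.31 to 0.41). Replicate 3 was the lowest library of both TM4 groups, at 0.754 and 0.785 times the mean of replicates 1 and 2. The shM5 difference was 0.92 higher in TM4 than in C18-4 on the log2 scale (95% interval 0.50 to 1.33), with an adjusted p of 0.107 over all genes (limma), and 0.78 with an adjusted p of 0.0034 without TM4 shNC replicate 3. Between shNC libraries Spp1 was 34.6-fold lower in C18-4 than in TM4 (limma adjusted p = 3.03e-07). Macrophages are a known source of osteopontin. The 7 macrophage markers summed to 2.77 to 20.2 RPKM, most of it Cd68 in C18-4 and Cd14 in TM4. Of the others, Adgre1 was at 0, Csf1r at most 0.1 and Ptprc at most 0.04 RPKM. The cell source of Spp1 was not tested. In the GENCODE annotation 309 of 1648 exonic bases of Spp1 (18.8%) are shared on the same strand with Gm42793, and the counting of such reads is not stated.

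The thrombospondins, trimeric or pentameric calcium-binding proteins with receptors such as CD36, CD47 and integrins, differed from one another. Thbs1, an activator of latent TGF-beta, was at 42.12, 43.98 and 22.12 RPKM in C18-4 shNC and 51.00, 54.53 and 26.74 RPKM in C18-4 shM5. Replicate 3 held about the same fraction of the mean of replicates 1 and 2 in both groups, 0.514 and 0.507, and within each replicate number shM5 was 1.21, 1.24 and 1.21 times shNC. The log2 fold change was 0.29, with an adjusted p of 0.833 without the replicate block and 0.012 with it, and again 0.29 with 0.00255 without replicate 3 of both groups (limma). Leaving out replicate 3 of one group alone breaks the pair, and the log2 fold change was then -0.03 without shNC replicate 3 and 0.61 without shM5 replicate 3. In TM4, Thbs1 was at 97.51, 100.66 and 173.91 RPKM in shNC and 158.77, 164.00 and 149.73 RPKM in shM5, where shNC replicate 3 was above all shM5 libraries. The log2 fold change was 0.40 (adjusted p = 0.242), and 0.67 (adjusted p = 1.52e-05) without shNC replicate 3 (limma). Thbs1 was lower in C18-4 than in TM4 shNC by 1.79 on the log2 scale, at an adjusted p of 0.00344 that misses the threshold of the study.

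Thbs2, an inhibitor of angiogenesis that also binds matrix metalloproteinases, separated the lines most. It was listed at 0 in 5 of 6 C18-4 libraries and at 0.01 RPKM in shM5 replicate 2, and at 601.77, 612.29 and 322.94 RPKM in TM4 shNC, so no fold is given. In TM4 shM5 it was at 361.65, 370.37 and 340.28 RPKM, below shNC replicates 1 and 2 and above shNC replicate 3. The log2 fold change of -0.46 (adjusted p = 0.227) became -0.76 (adjusted p = 6.34e-06) without shNC replicate 3 (limma). Thbs3, a pentameric family member, was at 7.59 to 8.31 RPKM in C18-4 shNC and 8.02 to 8.53 RPKM in C18-4 shM5, with overlapping groups. In TM4 it was at 11.11, 11.25 and 13.81 RPKM in shNC and 14.47, 15.16 and 15.44 RPKM in shM5, which did not overlap (log2 fold change 0.32, adjusted p = 0.192, and 0.42 with 0.000384 without shNC replicate 3, limma). Between shNC libraries it was lower in C18-4 by 0.59 on the log2 scale (limma adjusted p = 0.00877). Mtx1 on the opposite strand shares 318 exonic bases of Thbs3 (6.59%), and reads of the pair cannot be told apart without strand.

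Tnc, an oligomeric adhesion-modulating protein of remodelling tissue, was higher in C18-4 shM5. It was at 11.19, 12.90 and 14.69 RPKM in C18-4 shNC and 24.74, 25.85 and 21.17 RPKM in C18-4 shM5, and the groups did not overlap. The level was 1.85-fold higher (log2 fold change 0.89 ± 0.13 SE, 95% interval 0.59 to 1.18, limma adjusted p = 0.041, and 0.00363 with the replicate block), and shM5 was 1.44 to 2.21 times shNC within replicate numbers. Replicate 3 was again the highest shNC and the lowest shM5 library, so the value with the block is no stronger evidence. Leaving out shNC replicate 1 or 2 or shM5 replicate 1, 2 or 3 took the limma adjusted p of Tnc to between 0.0569 and 0.256, at log2 fold changes of 0.79 to 0.97. In TM4 it was at 39.43, 39.79 and 31.66 RPKM in shNC and 38.57, 41.07 and 37.16 RPKM in shM5, overlapping groups with a log2 fold change of 0.08 (95% interval -0.19 to 0.35). The shM5 difference was lower in TM4 than in C18-4 by 0.80 on the log2 scale, at an adjusted p of 0.125 (limma). Tnc was 2.85-fold lower in C18-4 than in TM4 shNC (limma adjusted p = 0.000166), a call lost without C18-4 shNC replicate 1 or 2 or TM4 shNC replicate 1 or 2.

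The collagen-binding proteins Sparc and Postn sat at opposite ends of the range. Sparc was the highest of the 10 in C18-4, at 1191.63, 1179.35 and 1209.19 RPKM in shNC and 1313.00, 1287.69 and 1210.16 RPKM in shM5. The groups were separated by less than 1 RPKM, and the log2 fold change was 0.09 (adjusted p = 0.698, limma). In TM4 it was at 64.92, 63.61 and 114.41 RPKM in shNC and 164.76, 168.82 and 117.57 RPKM in shM5, where shNC replicate 3 lay close to shM5 replicate 3. The log2 fold change of 0.93 (95% interval 0.30 to 1.56, adjusted p = 0.192) became 1.21 (adjusted p = 0.000184) without shNC replicate 3 (limma), the only one of the 10 then past the threshold of the study. Between shNC libraries Sparc was 15.3-fold higher in C18-4 (log2 difference 3.94 ± 0.22 SE, limma adjusted p = 8.66e-06). Postn, a relative of Tgfbi that promotes collagen cross-linking, was at 0.14 to 0.49 RPKM in all C18-4 libraries, too low to test there. In TM4 it was at 0.35, 0.32 and 0.35 RPKM in shNC and 0.96, 0.86 and 0.42 RPKM in shM5, with a log2 fold change of 0.88 at an adjusted p of 0.192 (limma). At these low levels the log2 fold change was 0.37 with a pseudocount of 1, and it was 1.21 without replicate 3 of every group.

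Fn1, the fibril-forming ligand of integrin alpha5 beta1, was at 7.55, 8.58 and 8.09 RPKM in C18-4 shNC and 9.35, 9.70 and 8.92 RPKM in C18-4 shM5. The groups did not overlap, with a log2 fold change of 0.21 and an adjusted p of 0.449 (0.106 with the replicate block, limma). In TM4 Fn1 was at 626.54, 623.77 and 421.34 RPKM in shNC and 442.46, 465.26 and 456.25 RPKM in shM5, where shNC replicate 3 was below every shM5 library. The log2 fold change of -0.27 (adjusted p = 0.259) became -0.46 (adjusted p = 3.09e-05) without shNC replicate 3 (limma). Fn1 was 67.2-fold lower in C18-4 than in TM4 shNC (log2 difference -6.07 ± 0.17 SE, limma adjusted p = 4.2e-07).

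**Figure D3:**
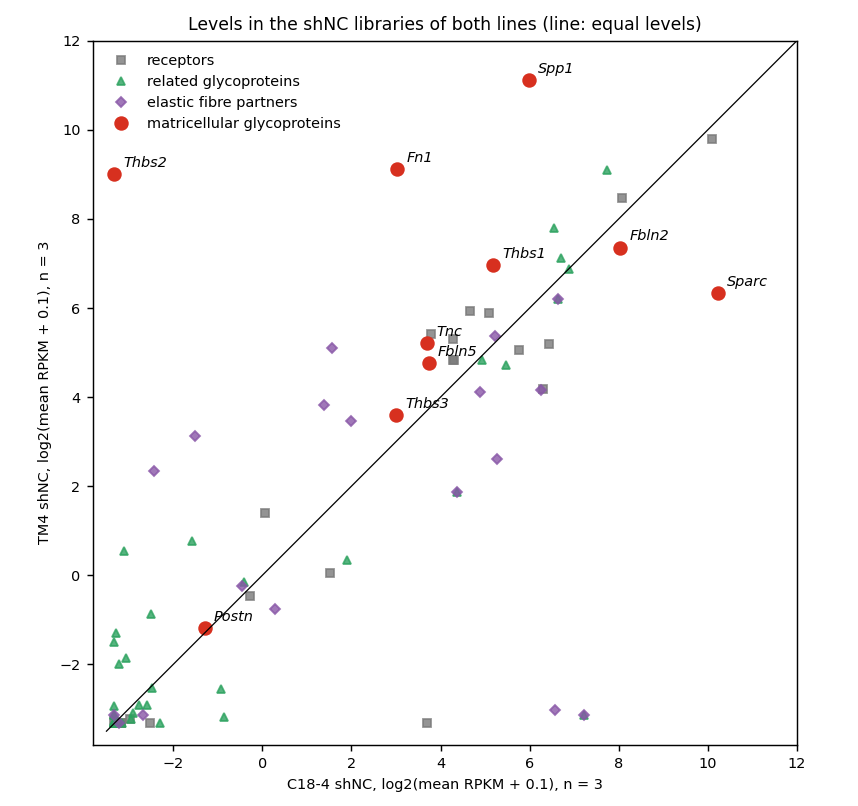
Mean level in C18-4 shNC (x axis) and TM4 shNC (y axis), both as log2(mean RPKM + 0.1) with n = 3, for the 10 genes (red) and the receptor, related glycoprotein and elastic fibre gene lists. Spp1, Thbs2 and Fn1 lie far above the line of equal levels and Sparc far below it.

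The fibulins, which join elastic fibres and basement membranes, were expressed in both lines. Fbln2 was at 272.83, 275.64 and 239.09 RPKM in C18-4 shNC and 169.40, 175.41 and 171.20 RPKM in C18-4 shM5, every shM5 library being lower. The level was 1.52-fold lower (log2 fold change -0.61 ± 0.08 SE, 95% interval -0.78 to -0.43, limma adjusted p = 0.0367, and 0.00107 with the replicate block), and the adjusted p was 0.0707 with median centring. Replicate 3 was the lowest library in shNC but not in shM5, so the value with the block is no stronger evidence. Leaving out shNC replicate 1 or 2 or shM5 replicate 1, 2 or 3 took the limma adjusted p of Fbln2 to between 0.0697 and 0.251, at log2 fold changes of -0.62 to -0.57. In TM4 it was at 171.26, 168.54 and 150.62 RPKM in shNC and 141.14, 147.70 and 151.68 RPKM in shM5 (log2 fold change -0.15, adjusted p = 0.209, and -0.21 with 0.00309 without shNC replicate 3, limma). Between shNC libraries it was higher in C18-4 by 0.68 on the log2 scale (adjusted p = 0.00126, limma), and by 0.55 with median centring. Fbln5, which binds integrins and helps to assemble elastic fibres, was at 12.24 to 15.56 RPKM over all C18-4 libraries, with overlapping groups. In TM4 it was at 29.54, 30.12 and 21.52 RPKM in shNC and 25.82, 25.51 and 21.18 RPKM in shM5. The TM4 log2 fold change was -0.15 (adjusted p = 0.491), and -0.31 with 0.0149 without shNC replicate 3 (limma). Fbln5 was lower in C18-4 than in TM4 shNC by 1.01 on the log2 scale at an adjusted p of 0.00148, and by 1.16 at 6.63e-05, past the threshold of the study, without TM4 shNC replicate 3 (limma).

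None of the 9 genes tested for a difference of the shM5 effect between the lines was called, where 0% of all 11773 genes passed the threshold of the study, 0.102% had an adjusted p below 0.05 and 2463 genes an unadjusted p below that value. The differences in C18-4 are therefore not shown to be particular to that line. Without TM4 shNC replicate 3, 7 of 9 had an adjusted p below 0.05 against 38% of all genes, Thbs2, listed at 0 in nearly all C18-4 libraries, among them, and Sparc alone passed the threshold of the study against 4.68%. The Sparc difference was then 1.12 on the log2 scale (limma adjusted p = 0.000762), against 0.84 (adjusted p = 0.193) with all libraries.

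**Figure D4:**
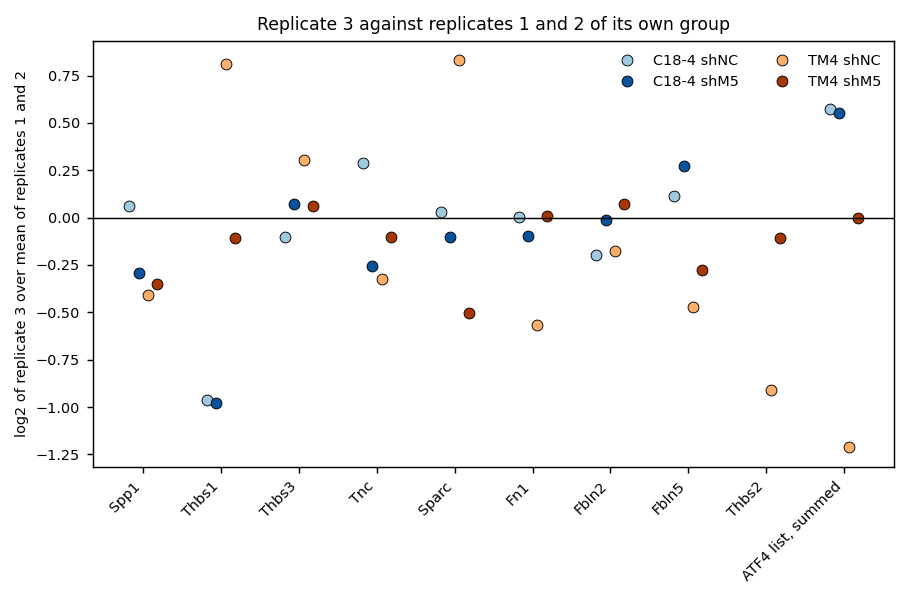
Log2 ratio of replicate 3 to the mean of replicates 1 and 2 of its group (y axis) for 9 of the 10 genes and for the summed RPKM of the ATF4 gene list, with 1 point per group. Postn and the C18-4 values of Thbs2 are left out as too low. In C18-4 the Thbs1 points of shNC and shM5 coincide near -1 and the ATF4 points coincide above 0, while in TM4 the ATF4 list and Thbs2 are displaced in shNC, and Sparc lies above 0 in shNC and below 0 in shM5.

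Replicate 3 did not move the 10 genes alike. In C18-4 the ratio of replicate 3 to replicates 1 and 2 of Thbs1 was close in the shNC and shM5 groups, as was that of the ATF4 list, whereas Spp1 and Tnc had ratios that differed between the groups. In TM4 shNC, the ratios were 1.76 for Thbs1, 0.532 for Thbs2, 1.78 for Sparc and 0.674 for Fn1. In TM4 shM5 they were 0.928, 0.930, 0.705 and 1.01 for the same genes. The 5 smooth muscle and myoid markers differed among themselves. Their summed level was 61.9 to 77.9 RPKM in C18-4 shNC and 113 to 158 RPKM in C18-4 shM5, and 122 to 250 RPKM in TM4 shNC and 231 to 350 RPKM in TM4 shM5, almost all of it Acta2 and Tagln. In C18-4 the log2 fold change was 1.34 for Acta2 (limma adjusted p = 0.0764, and 0.000608 with the replicate block) and 0.93 for Tagln (0.0548, and 0.000335 with the block). Des and Cnn1 had log2 fold changes of -0.06 and 0.04 (limma adjusted p = 0.956 for both), and Myh11 was at most 0.07 RPKM. Their part in the differences of Tnc and the other genes was not tested.

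Among 20 receptors and partners of these proteins, all with values, 15 were tested in C18-4 and 0 passed the threshold of the study. Itgb3, a vitronectin and osteopontin receptor subunit named here after its values were seen, was higher in C18-4 shM5. It was at 2.53, 2.61 and 3.09 RPKM in shNC and 5.35, 5.21 and 5.43 RPKM in shM5 (log2 fold change 0.94, limma adjusted p = 0.041). With the replicate block 3 of the 15 receptors were higher and 3 lower at an adjusted p below 0.05, against 11.9% of all genes called. The most abundant were Calr, an endoplasmic reticulum chaperone and cell surface partner of thrombospondin, the shared integrin subunit Itgb1, the heparan sulphate proteoglycan Sdc4 and the laminin receptor subunit Itga3, whose log2 fold changes in C18-4 lay between 0.11 and 0.24. The median log2 fold change of the 15 receptors was 0.13 against 0.00 over all genes. In TM4, 14 were tested and 0 called, with a median of 0.39 against 0.04, and without shNC replicate 3 9 were higher and 2 lower at an adjusted p below 0.05, a share near the 67.4% of all genes, with Itgb3 past the threshold of the study against 8.13% of all genes. Between the lines 3 of 15 were higher in C18-4 (Itga3, Sdc4 and Ptprz1, a receptor phosphatase that binds tenascins) and 2 lower (Itgb5 and the endocytic receptor Lrp1), against 19.2% of all genes. Among those with a mean of 0.5 RPKM in each line it was 4 of 14 against 11.2%, without Ptprz1, which entered the fit only through C18-4. Ptprz1 was at 9.72 to 18.31 RPKM in C18-4 shNC and listed at 0 in TM4.

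Among 37 related glycoproteins, 36 had values, 11 were tested in C18-4 and 12 in TM4, and 0 were called in either line. Their median log2 fold change was 0.01 in C18-4 and 0.20 in TM4, against 0.00 and 0.04 over all genes. The most abundant were the matricellular proteins Cyr61 and Ctgf, the insulin-like growth factor binding protein Igfbp7 and the milk fat globule protein Mfge8. Mfge8 was at 118 RPKM on average in the shNC libraries of both lines, and Cyr61 was 2.56-fold lower in C18-4 than in TM4 (limma adjusted p = 1.06e-05). Of 13 tested between the lines, Fbln1 and Efemp1, both of the fibulin family, were higher in C18-4, and Cyr61 and Tgfbi were lower, against 19.2% of all genes called. Efemp1 and Tgfbi entered the fit through 1 line only, and with a mean of 0.5 RPKM in each line it was 2 of 10 (Fbln1 and Cyr61) against 11.2%. Efemp1 was at 135 to 178 RPKM in C18-4 shNC and at most 0.04 RPKM in TM4 shNC. Without TM4 shNC replicate 3, Tgfbi and Spon2 were higher and Ctgf lower in TM4 shM5 at the threshold of the study, 3 of 12 against 8.13% of all genes.

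Of 18 partners in elastic fibres, 13 were tested in each line between shM5 and shNC and 0 were called. Their median log2 fold changes were 0.01 in C18-4 and 0.34 in TM4, against -0.002 and 0.04 over all genes. With the replicate block 1 of the 13 passed the threshold of the study in C18-4, against 0.0775% of all genes. Lox, the enzyme that cross-links elastin and collagen, was at 112.70, 111.28 and 62.63 RPKM in shNC and 47.04, 48.16 and 33.75 RPKM in shM5 (log2 fold change -1.12, limma adjusted p = 0.000464 with the block and 0.13 without). Of 15 tested between the lines, 5 were higher in C18-4 (Fbn1, Lox, Loxl2, Fbln1 and Efemp1) and 3 were lower (Ltbp1, Ltbp2 and Mfap5), against 19.2% of all genes called. Lox, Efemp1, Ltbp2 and Mfap5 entered the fit through 1 line only, and with a mean of 0.5 RPKM in each line it was 4 of 10 against 11.2%. Fibrillin 1 (Fbn1) was 6.27-fold higher in C18-4 and the latent TGF-beta binding protein Ltbp1 12.3-fold lower. Lox was at most 0.04 RPKM in TM4 shNC, and Loxl1 and Efemp2, which assist in elastic fibre assembly, were at 32.87 RPKM or more in all shNC libraries of both lines.

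The gene whose levels most resembled those of Spp1 over the 12 libraries, among 8769 genes averaging 5 RPKM or more, was Tgfbr3, the co-receptor betaglycan (Pearson r = 0.999 on log2(RPKM + 0.1)), followed by Fgfr1, Prag1, Prrx1 and Acsl3 at 0.998. The difference between the lines sets most of these correlations, and the libraries share their line, their group and their replicate number. Over deviations from the mean of each line the closest were Tgfbr3 (r = 0.949), Usp25 (0.934), Fgfr1 (0.921), Ahcyl1 (0.913) and Acsl3 (0.912). Tgfbr3 was at 5.88 and 3.94 RPKM on average in C18-4 shNC and shM5, and at 41.5 and 41.3 RPKM in TM4 shNC and shM5. Fgfr1, a fibroblast growth factor receptor, was at 4.02 and 2.34 RPKM in C18-4 and at 41.5 and 39.3 RPKM in TM4 in the same order.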

How the data were processed

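Messenger RNA of 12 libraries, 3 in each of 4 groups, was sequenced, and groups and replicate numbers came from the labels. The authors mapped reads to reference genes with SOAPaligner, and the deposited values are RPKM with 2 decimals for 17995 genes, 772 of them at 0 in all libraries. The genome build and annotation are not given in the sources used here. From steps between low values, the value of 1 read differed little between libraries (0.988 to 1.02, relative, over 109 genes), but the depth itself is unknown, so no interval for counting error is given.

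log2(RPKM + 0.1) of genes averaging 0.5 RPKM or more was fitted with limma 3.58.1 in R 4.3.3 (eBayes with a mean-variance trend, Benjamini-Hochberg over all genes fitted), on 6 libraries per comparison and on 12 for the difference between the lines. The fits within each line and between the lines were checked on simulated data. The noise there was independent between libraries and of equal spread in both groups. It held no deviation shared by replicate 3 and no single deviating library, so the check does not cover calls that depend on these. The 10 genes were reported always, and of other lists the 4 with the highest mean and those past the threshold in a comparison. The members and the lists were chosen with earlier results of these data known. In C18-4, deviations from group means correlated at 0.439, 0.409 and 0.631 for same-numbered libraries. Replicates 1 and 2 correlated across their numbers at 0.341 and 0.345, and replicate 3 with either at -0.514 to -0.467. The numbers thus mainly set replicate 3 apart from replicates 1 and 2. Same-numbered TM4 libraries correlated at 0.0729, 0.0489 and 0.127, so the numbers do not pair those. The alternatives changed the pseudocount to 1, the filter, the scaling, the trend, the block, the threshold, the fit of 1 line or all 12 libraries, and the libraries left out. Markers of Leydig cells (6 genes, 0.61 to 1.58 RPKM summed), endothelium (4 genes, at most 1.24) and epithelium (4 genes, 72.1 to 106 in C18-4 and at most 0.14 in TM4) were summed too, and 15 proliferation genes summed to 1708 to 1922 RPKM in C18-4 and 867 to 1436 in TM4. Krt18 made up almost all of the epithelial sum in C18-4, where Cdh1, Epcam and Krt8 were at most 0.07, 2.32 and 3.26 RPKM. Promoter windows came from RefSeq. Exons shared with other genes were read from GENCODE: Thbs1, Tnc and Fn1 share 2.26 to 3.42% of theirs with genes on the opposite strand.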

Additional observations from a re-analysis of the deposited data

How the results depend on the processing

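Under the alternatives, log2 fold changes of the 10 genes moved by less than the replicate spread in 561 values and by more in 20. Only genes called in the main fit were checked for reversal, which left the comparison between the lines, and none reversed there. In the other comparisons signs did change, for Spp1 in TM4 in 4 of 15 alternatives and for Fbln5 in C18-4 in 2 of 15. The difference of effects changed sign for Thbs1 in 5 of 20. Thbs1 and Thbs3 in C18-4 and Tnc in TM4 changed sign in 1 of 15 each. Counts depended on the libraries. At the threshold of the study, C18-4 shM5 against shNC gave 0 of the 10 genes and 0 of all genes, and an adjusted p below 0.05 gave 3 and 68. Leaving out replicate 3 of every group gave 1 (Tnc) and 54, and the replicate block gave 9 of all genes. In TM4 it gave 0 and 0, 1 (Sparc) and 1021 without replicate 3 of every group, and ranges of 0 to 1 and 0 to 896 when 1 library was left out. Between the lines 5 and 2265 became 9 and 6517 at an adjusted p below 0.05, 3795 of all genes without replicate 3 of every group, 4 and 1021 with the replicate block, and 1360 to 3124 of all genes with 1 library left out. For the difference of effects 0 and 0 became 12 of all genes at an adjusted p below 0.05, 2 (Tnc and Sparc) and 1047 without replicate 3 of every group, and 0 to 1 and 0 to 552 with 1 library left out. Counts at an adjusted p below 0.05 under further settings were added after seeing the data: C18-4 gave 0 to 3 with 1 library left out, TM4 gave 8 without replicate 3 of every group and 0 to 7 with 1 library left out, and the difference of effects gave 1 (Fbln2) with quantile normalization, 9 without replicate 3 of every group and 0 to 7 with 1 library left out. The replicate block left the TM4 counts and the differences of effects of the 10 genes at 0, and the numbers do not pair the TM4 libraries or those of different lines. The cause of these changes was not tested. A group left with fewer libraries was assumed to vary like the other. Depth is unknown, so the precision of low genes such as Postn is not known.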
